A study of Homo sapiens with 4 samples.

Results

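The RNA of 10 extracellular matrix genes was followed in naïve human ESCs of 2-D and 3-D culture. They were taken as a fixed list of gene symbols, matched to the gene identifiers of the count files through GENCODE release 44, and all 10 of the 10 were found among 60564 genes. The list holds the adhesive glycoprotein gene FN1, the matricellular genes TNC, THBS1 and THBS2, the proteoglycan gene VCAN, the elastic fiber genes FBN1, FBN2 and EMILIN1, and the crosslinking enzyme genes LOX and LOXL2. All of the cells were Elf1, a single naïve human ESC line, kept in ESC expansion medium. The study's methods give this medium as knockout serum replacement with FGF2, CHIR99021, a second inhibitor and LIF, and both conditions share it. By the same methods, the line was maintained on mouse embryonic feeders and was moved to plates without feeders before encapsulation. The 2-D cells were adherent on plastic plates coated with Matrigel, and the 3-D cells were dissociated to single cells, encapsulated in scaffolds of PEG-8-SH and PEG-8-Acr and kept there for 21 days. There were 2 biological replicates of each. The substrate, the geometry, the dissociation and the time in culture differed together, so their parts cannot be told apart.

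Fibronectin, the product of FN1, is secreted as a dimer and is pulled into fibrils by cells through integrins, chiefly the integrin made of the ITGA5 and ITGB1 products. Matricellular proteins such as tenascin-C and the thrombospondins sit in the matrix and tune adhesion more than they bear load, and versican binds hyaluronan to form a swollen matrix. Fibrillins assemble into microfibrils, on which elastic fibers form, and lysyl oxidases crosslink collagen and elastin. In pluripotent cells fibronectin and laminins are known as attachment substrates.

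Counts of the libraries summed to between 18276147 and 33833778, with the 3-D libraries shallower. The counts were normalized by edgeR's TMM method and are given as normalized CPM, the count as a rate per library size after scaling for composition. All 10 genes passed the filter on low counts, as did 22555 genes in all. Every fold change sets 3-D against 2-D, SE is the standard error on the log2 scale, and ± gives the SD over 2 libraries. The edgeR adjusted p is that of edgeR's quasi-likelihood test after Benjamini-Hochberg adjustment over all tested genes, and genes with a value below 0.05 are called. Core pluripotency markers were abundant in all libraries. Their summed level was 4196 to 4228 CPM in 2-D and 4188 to 4284 CPM in 3-D grown cells. Of the 8 core markers 5 had a log2 fold change above 0 and 3 below, from −0.10 to 0.14, and 0 were called. In edgeR's test 5 of the 8, in both directions, had an unadjusted p below 0.05, against 21.3% of all tested genes. LIN28A had the highest level in every library, followed by DPPA4 in 2-D and by TDGF1 in 3-D grown cells. Naive markers were far lower, with sums of 103 to 106 and 111 to 114 CPM, and DPPA5 stayed at or under 0.130 CPM in every library. KLF5 alone of the naive markers was called (higher in 3-D, log2 fold change 0.26, edgeR adjusted p = 0.00336). Its mean was 47.4 CPM in 2-D and 56.7 CPM in 3-D grown cells. Of 7 tested naive markers 4 had a log2 fold change above 0 and 3 below, namely DPPA3 (−0.07), DNMT3L (−0.06) and TFCP2L1 (−0.06).

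Of the 10 genes, FN1, THBS1, VCAN and LOX were called higher in 3-D and 0 were called lower in edgeR's test, 4 genes in all. The background is that 4.54% of all tested genes were called higher, 3.36% lower and 7.90% in either direction. At an unadjusted p below 0.05 there were 6 of the 10, all higher in 3-D, against 21.3% of all tested genes in either direction. In 8 of the 10 genes both 3-D libraries lay above both 2-D libraries in TMM-normalized CPM, which was true of 25.4% of all tested genes. The reverse held for 25.1% of all tested genes and none of the 10, and together 50.5% did not overlap. This count depended on the scaling. With library size alone it was 7 of the 10 genes, against 15.2% of all tested genes. In TPM, described further on, it was 3 genes, namely TNC, THBS1 and LOX. The share of all tested genes in TPM was not computed, so the count in TPM has no background to be read against. The median log2 fold change of the 10 genes was 0.11, where the median over all tested genes was −0.00014. Most changes were small. The log2 fold changes of FN1, THBS1 and VCAN lay between 0.11 and 0.18, and that of LOX was 0.87.

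**Figure D1:**
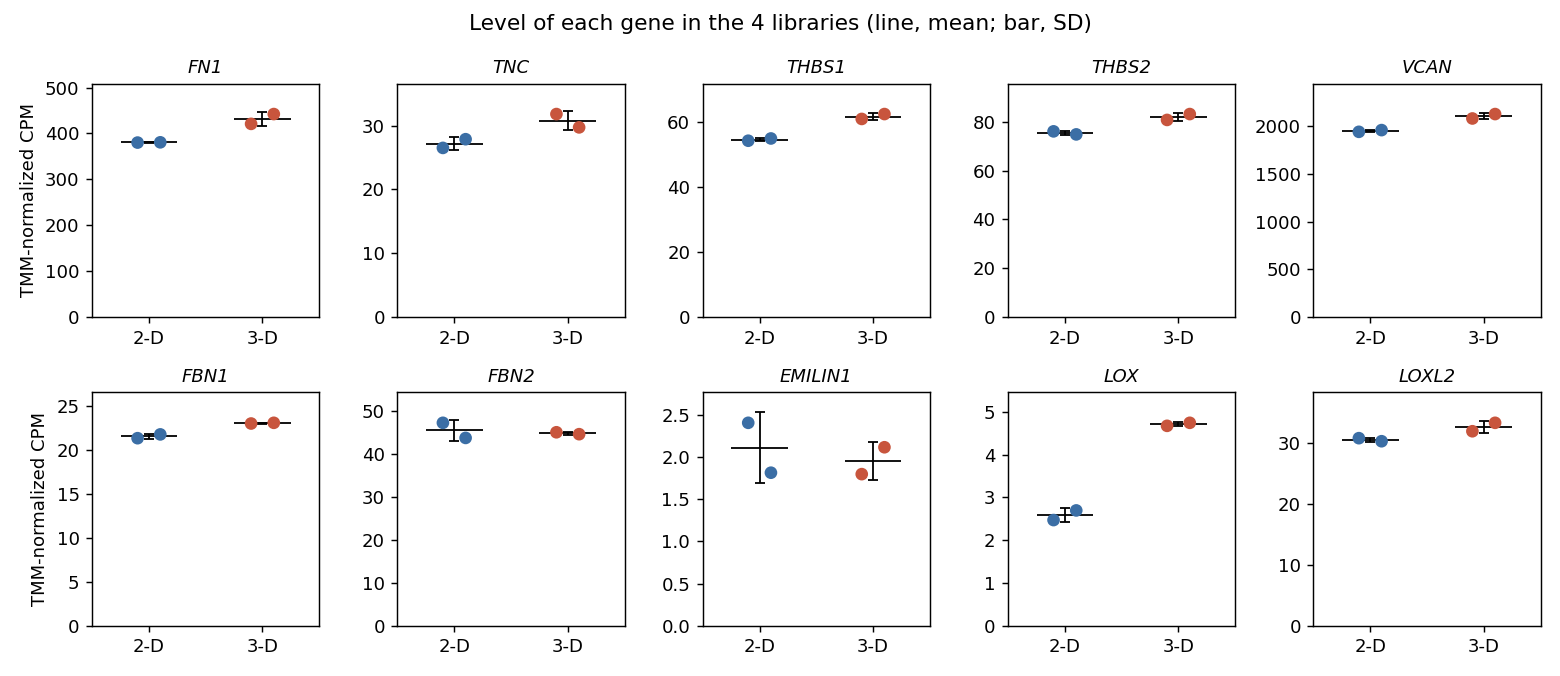
TMM-normalized CPM of each gene (vertical axes, each from 0) in the 2 libraries of 2-D and the 2 libraries of 3-D grown cells (points), with the mean as a line and the SD as a bar. LOX stood at 2.47 and 2.69 CPM in 2-D and at 4.67 and 4.74 CPM in 3-D grown cells, while the levels of FBN2 and EMILIN1 overlapped between the conditions.

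**Figure D2:**
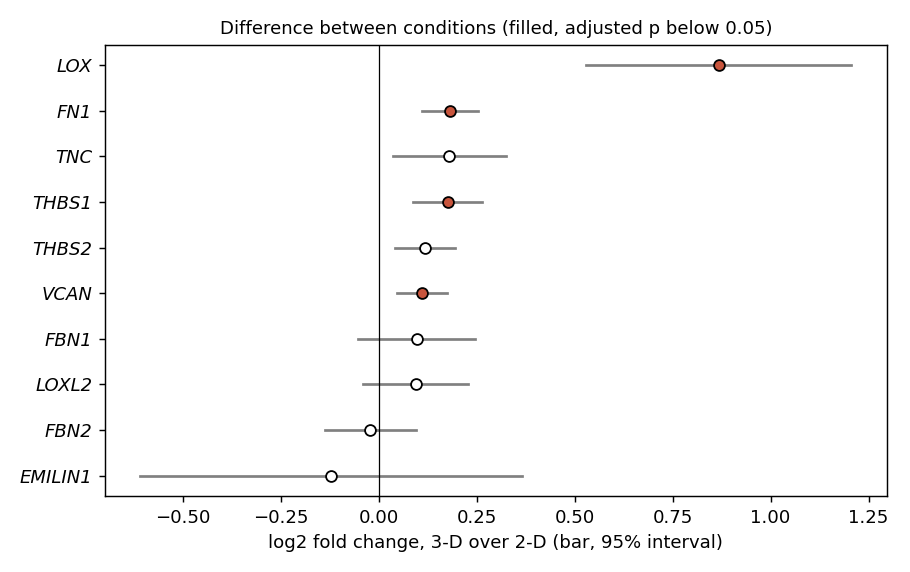
Log2 fold change (3-D over 2-D) for each gene as a point with its 95% interval as a bar, filled where the edgeR adjusted p was below 0.05. The 4 filled genes all lie to the right of 0, with LOX at 0.87 and the others at 0.11 to 0.18.

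The sequences before the starts of FN1 and THBS1 are shown because both genes rose and their RefSeq starts lie within 5 bases of the GENCODE start, so that the last 5 bases of the FN1 window are also in the GENCODE transcript. Each is the 250 bases before the start of the RefSeq gene on GRCh38.p14, written 5′ to 3′ on the strand of the gene, at chr2:215436069-215436318 (minus strand) and chr15:39580829-39581078 (plus strand). Capitals mark the cyclic AMP response element TGACGTCA, the CCAAT box, the Sp1 GC box GGGCGG and the TEAD motif GGAATG, each searched on both strands with overlapping matches kept. The TATA box TATAAA and the AP-1 motif TGANTCA were searched as well, without a match in either window. Only these exact letters were searched. Variants of the TATA box, such as the letters atataa near the end of the FN1 window, were not.

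FN1: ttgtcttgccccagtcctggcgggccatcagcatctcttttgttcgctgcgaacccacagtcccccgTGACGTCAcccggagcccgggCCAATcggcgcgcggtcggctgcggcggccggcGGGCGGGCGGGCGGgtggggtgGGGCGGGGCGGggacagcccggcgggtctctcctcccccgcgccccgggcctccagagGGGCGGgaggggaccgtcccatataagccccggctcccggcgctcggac

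THBS1: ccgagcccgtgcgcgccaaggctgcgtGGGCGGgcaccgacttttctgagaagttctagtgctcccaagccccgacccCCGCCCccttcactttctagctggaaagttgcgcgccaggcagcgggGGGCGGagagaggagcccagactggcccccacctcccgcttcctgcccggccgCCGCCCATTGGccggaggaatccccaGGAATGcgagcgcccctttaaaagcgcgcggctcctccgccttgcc

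The FN1 window held 1 cyclic AMP response element, 183 bases before the start, a sequence found in 1.65% of 35116 RefSeq promoter windows of the same length. It also held 6 GC boxes and 1 CCAAT box, which occur in 42.6% and 32.0% of all windows. The THBS1 window held 4 GC boxes, 1 CCAAT box on the other strand and 1 TEAD motif, 46 bases before the start, and the TEAD motif occurs in 11.9% of all windows. These matches are descriptions of letters and were not tested against the RNA levels. The windows of VCAN and LOX reach further into GENCODE transcripts and are not shown.

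FN1 encodes fibronectin and lies on chromosome 2 from 215360440 to 215436073 on hg38. It rose from 380.1 and 380.7 CPM in the 2-D libraries to 421 and 442 CPM in the 3-D libraries. The 2-D libraries were almost equal and the spread lay in 3-D, with no overlap between the conditions. The means were 380.4 ± 0.415 and 432 ± 15.1 CPM (n = 2 each), a 1.13-fold difference (log2 fold change 0.18, SE 0.03, edgeR adjusted p = 0.0044). FN1 was called in each of the 14 alternative analyses, with an edgeR adjusted p of at most 0.0448, which was reached when library size alone set the scaling.

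Of the matricellular genes, THBS1 rose as well. It encodes thrombospondin-1, a trimeric glycoprotein that binds CD36 and CD47 and activates latent TGF-β, and lies on chromosome 15 from 39581079 to 39599466. Its levels were 54.2 and 54.9 CPM in 2-D and 60.9 and 62.4 CPM in 3-D grown cells. The means of 54.6 ± 0.491 and 61.7 ± 1.06 CPM (n = 2 each) gave a log2 fold change of 0.18 (SE 0.04, edgeR adjusted p = 0.0190). The groups did not overlap, but the call was lost in 7 of 14 alternatives. Leaving out 2-D replicate 1, 2-D replicate 2 or 3-D replicate 2 gave edgeR adjusted p of 0.165, 0.124 and 0.0501. It was 0.122 when library size alone set the scaling, 0.0839 in the likelihood ratio test and 0.0553 after thinning the 2-D libraries to the 3-D depth, and DESeq2 gave an adjusted p of 0.170.

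THBS2 encodes thrombospondin-2, the close relative of thrombospondin-1, and lies on chromosome 6 from 169215780 to 169254050. It had 76.1 and 74.8 CPM in 2-D and 80.8 and 83.2 CPM in 3-D grown cells, so here too the 3-D libraries were the higher ones. Its log2 fold change of 0.12 did not pass the threshold (SE 0.04, edgeR adjusted p = 0.0616), and did so without 3-D replicate 1 (log2 fold change 0.14, adjusted p = 0.0298). Whether THBS1 and THBS2 differ in their change was not tested. An antisense gene, THBS2-AS1, shares 2249 bases, or 31.2%, of the exon length of THBS2, and had 1210 and 1051 counts in 2-D and 709 and 586 counts in 3-D against 2306 to 2620 and 1491 to 1660 counts of THBS2. Strand-specific counting is not given in the sources used here, so reads of the pair cannot be told apart.

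TNC, which encodes tenascin-C, a large hexameric protein of developing and healing tissue, lies on chromosome 9 from 115019575 to 115118207. It had 26.5 and 27.9 CPM in 2-D and 31.8 and 29.7 CPM in 3-D grown cells. All 3-D values were higher, with a log2 fold change as large as that of FN1 but a wider error (0.18, SE 0.07, edgeR adjusted p = 0.132). Without 3-D replicate 2 it was 0.23 with an adjusted p of 0.0430 in the same test.

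VCAN, which encodes the hyaluronan-binding proteoglycan versican, lies on chromosome 5 from 83471618 to 83582303 and was the most abundant of the 10 genes. It rose from 1940.1 and 1958 CPM in 2-D to 2080.0 and 2126 CPM in 3-D grown cells. The means were 1949 ± 12.8 and 2103 ± 32.7 CPM (n = 2 each), a 1.08-fold difference (log2 fold change 0.11, SE 0.03, edgeR adjusted p = 0.0382). VCAN made up 74.6% to 75.4% of the summed CPM of the 10 genes in each library. Its call was lost in 4 of 14 alternatives, where the edgeR adjusted p was 0.221 without 2-D replicate 1, 0.150 without 2-D replicate 2, 0.342 in the likelihood ratio test and 0.410 when library size alone set the scaling, with a log2 fold change of 0.05 in the last.

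The elastic fiber genes were not called. FBN1, on chromosome 15 from 48408313 to 48645721, encodes fibrillin-1, the main fibrillin of adult microfibrils, and had 21.3 and 21.8 CPM in 2-D and 23.0 and 23.1 CPM in 3-D grown cells. Its log2 fold change was 0.10 with a 95% interval of −0.05 to 0.25 (edgeR adjusted p = 0.472). FBN2, on chromosome 5 from 128257909 to 128659185, encodes fibrillin-2, which is known chiefly from embryonic tissue. It had 47.2 and 43.6 CPM in 2-D and 45.0 and 44.5 CPM in 3-D grown cells, and both 3-D values fell between the 2-D values.

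The log2 fold change of FBN2 was −0.02 with a 95% interval of −0.14 to 0.09 (edgeR adjusted p = 0.871). It became 0.035 without 2-D replicate 1. EMILIN1, on chromosome 2 from 27078615 to 27086403, encodes a glycoprotein of the elastin and microfibril interface. It had 2.41 and 1.82 CPM in 2-D and 1.80 and 2.12 CPM in 3-D grown cells, from 37 to 83 counts a library, and the conditions overlapped. Its interval of −0.61 to 0.36 around a log2 fold change of −0.12 was the widest of the 10 genes (edgeR adjusted p = 0.823). It became 0.10 without 2-D replicate 1.

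LOX encodes lysyl oxidase, which oxidizes lysines of collagen and elastin as the first step of crosslinking, and lies on chromosome 5 from 122063195 to 122078413. It changed the most of the 10 genes, and from a low level. Its counts were 85 and 83 in 2-D and 96 and 85 in the shallower 3-D libraries, which are 2.47 and 2.69 CPM and 4.67 and 4.74 CPM. Both 3-D libraries lay far above both 2-D libraries. The means of 2.58 ± 0.159 and 4.71 ± 0.0499 CPM (n = 2 each) were a 1.82-fold difference (log2 fold change 0.87, 95% interval 0.53 to 1.21, SE 0.16, edgeR adjusted p = 0.00458). It was called in each of the 13 alternatives that gave an adjusted p, with a log2 fold change between 0.80 and 0.93. DESeq2 gave LOX no adjusted p, a log2 fold change of 0.87 and an unadjusted p of 0.00344. SRFBP1, on the opposite strand, shares 138 bases or 2.47% of the exon length of LOX, and its log2 fold change was 0.05 (edgeR adjusted p = 0.702).

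LOXL2, on chromosome 8, encodes a lysyl oxidase with scavenger receptor domains that crosslinks collagen IV. It had 30.8 and 30.3 CPM in 2-D and 31.9 and 33.3 CPM in 3-D grown cells. The conditions did not overlap, but the log2 fold change of 0.09 had a 95% interval of −0.04 to 0.23 (edgeR adjusted p = 0.429). The interval of LOX, from 0.53, begins above the upper bound of LOXL2. The difference between the 2 genes was not tested.

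Levels can be compared between genes only per length, and TPM, the count per exon length scaled to the same total in each library, was used for that alone. It carries no TMM scaling. In 2-D grown cells the order was VCAN (408 ± 10.2 TPM), FN1 (67.8 ± 1.33), THBS2 (32.2 ± 0.219), THBS1 (18.3 ± 0.502), LOXL2 (15.7 ± 0.107), TNC (8.71 ± 0.469), FBN2 (7.81 ± 0.283), FBN1 (3.57 ± 0.117), EMILIN1 (1.66 ± 0.299) and LOX (1.42 ± 0.113 TPM, n = 2 each). All neighbours in that order were separated in both libraries except EMILIN1 and LOX, whose ranges overlapped. The order was the same in 3-D grown cells but for the last 2 places. There LOX stood at 2.34 and 2.52 TPM, above EMILIN1 at 1.29 and 1.61 TPM, and all neighbours were separated.

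**Figure D3:**
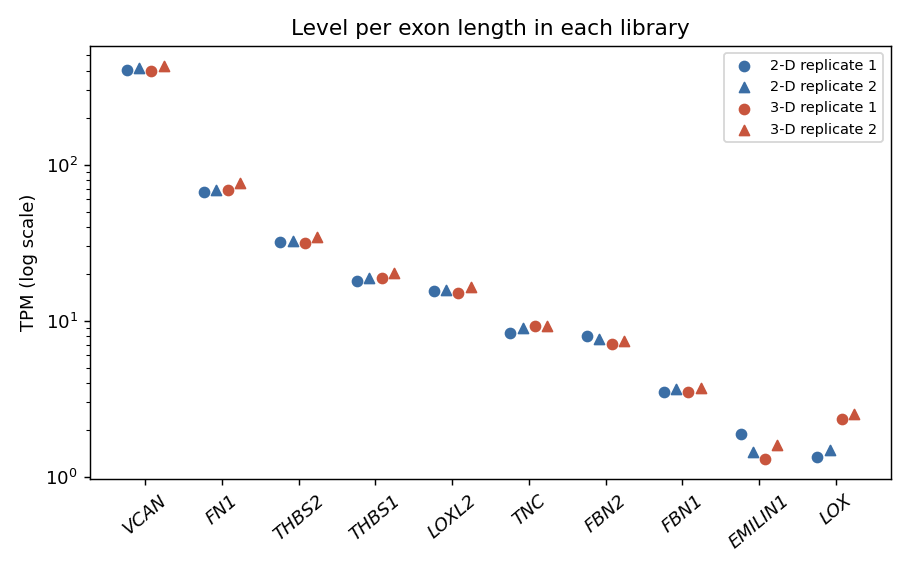
TPM of each gene (vertical axis, log scale) in each library (points; circles for replicate 1 and triangles for replicate 2), ordered by the mean in 2-D grown cells. VCAN stands highest at 408 TPM and LOX lowest at 1.42 TPM in 2-D, and LOX moves above EMILIN1 in 3-D grown cells.

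The 74 related matrix genes of 5 lists, written from general knowledge, were looked at beside the 10 genes. Of these 60 were tested, 40 had a log2 fold change above 0, 6 were called higher and 0 lower in 3-D by edgeR's test, and 14 had an unadjusted p below 0.05. Over all tested genes, 11272 of 22555 had a log2 fold change above 0, 4.54% were called higher and 21.3% had an unadjusted p below 0.05, a share close to the 23.3% of these 60 genes. The 14 others did not pass the filter on low counts. Of 11 tested receptors of fibronectin, tenascin-C and thrombospondins, 2 were called higher. ITGB1, the β subunit of the fibronectin receptor, had 519 and 515 CPM in 2-D and 572 and 594 CPM in 3-D grown cells (log2 fold change 0.17, SE 0.03, edgeR adjusted p = 0.00485). With library size alone its log2 fold change was 0.11 and the call was lost (edgeR adjusted p = 0.0528). LRP1, an endocytic receptor that clears thrombospondins, had 297 and 283 CPM in 2-D and 315 and 335 CPM in 3-D grown cells (log2 fold change 0.16, edgeR adjusted p = 0.0174). The call of LRP1 was lost in 5 of 14 alternatives, all in edgeR. Its adjusted p was 0.0786 in the likelihood ratio test, 0.129 with library size alone, 0.176 with offsets for exon length and GC content, 0.133 with these offsets and the replicate block, and 0.203 without 2-D replicate 2. ITGAV, SDC4 and SDC2, the uncalled receptors of highest CPM, a level not divided by length, had log2 fold changes of −0.04, −0.03 and 0.05. ITGA5, the α subunit of the fibronectin receptor, had 33.6 CPM in both 2-D libraries and 36.2 and 39.996 CPM in the 3-D libraries, without passing the threshold (log2 fold change 0.18, SE 0.06, edgeR adjusted p = 0.116), and was named after its values were seen.

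Among 12 tested matricellular genes outside the list, SPP1 and POSTN were called higher. SPP1, which encodes the integrin-binding phosphoprotein osteopontin, had 449 and 450.4 CPM in 2-D and 510.2 and 522 CPM in 3-D grown cells (log2 fold change 0.20, SE 0.03, edgeR adjusted p = 0.00157). POSTN encodes periostin, which binds fibronectin, tenascin-C and collagen. It was low, with 4.09 CPM in both 2-D libraries and 5.64 and 7.25 CPM in the 3-D libraries (log2 fold change 0.65, SE 0.15, edgeR adjusted p = 0.0181). Its call was lost without 3-D replicate 2 (log2 fold change 0.47, edgeR adjusted p = 0.0638) and after thinning the 2-D libraries to the 3-D depth (0.50, edgeR adjusted p = 0.0903), and DESeq2 gave it no adjusted p. SPARC, a collagen-binding matricellular gene at 241 to 250 CPM, had a log2 fold change of 0.04. CCN1 and CCN2, which are known as YAP targets, both had −0.01.

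Of 17 tested elastic fiber genes, 13 had a log2 fold change above 0 and MFAP2 alone was called. MFAP2 encodes a small glycoprotein bound to fibrillin microfibrils and had 20.5 and 22.3 CPM in 2-D and 26.7 and 28.6 CPM in 3-D grown cells (log2 fold change 0.37, SE 0.07, edgeR adjusted p = 0.0080). FBLN1, EMILIN2 and LTBP1, the others of highest CPM, had log2 fold changes of 0.08, 0.15 and 0.13 without passing the threshold (edgeR adjusted p = 0.173, 0.0844 and 0.154). FBN3, the third fibrillin, had 45.4 to 48.5 CPM over all 4 libraries with a log2 fold change of −0.01, and was named after its values were seen. MMRN1 had 0 counts in every library and was also named after its values were seen.

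None of 6 tested lysyl oxidases and activators was called (edgeR, 1 with an unadjusted p below 0.05). LOXL3 and the copper transporter ATP7A had log2 fold changes of −0.07 and −0.0034. BMP1, the protease that frees active lysyl oxidase from its precursor, had 7.35 and 6.72 CPM in 2-D and 8.66 and 8.76 CPM in 3-D grown cells (log2 fold change 0.31, SE 0.11, edgeR adjusted p = 0.119). Among 14 tested partners of versican and versican-cleaving proteases, CD44 was called higher. CD44, the main cell surface receptor of hyaluronan, had 147 CPM in both 2-D libraries and 167 and 168 CPM in the 3-D libraries (log2 fold change 0.19, SE 0.03, edgeR adjusted p = 0.00181). HAS3 and HAS2, which synthesize hyaluronan, had log2 fold changes of 0.02 and 0.04, and ADAMTS1, a protease that cuts versican, had −0.12 (edgeR adjusted p = 0.218).

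**Figure D4:**
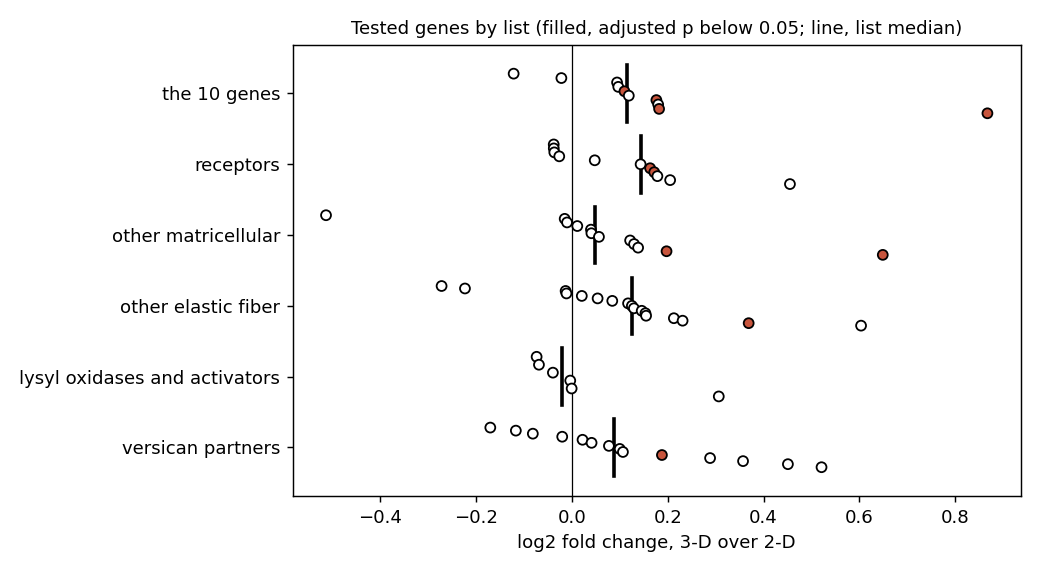
Log2 fold change (3-D over 2-D, horizontal axis) for each tested gene of the 10 genes and of the 5 related lists (points), filled where the edgeR adjusted p was below 0.05, with the median of each list as a line. The filled points all lie to the right of 0, and the medians run from −0.02 for the lysyl oxidases and activators to 0.14 for the receptors.

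Markers of other cell types were read beside these genes. Of 10 fibroblast and mesenchymal markers 8 were tested, and COL1A1, COL3A1 and THY1 were called higher in 3-D grown cells, with log2 fold changes of 0.29, 0.73 and 0.22 (edgeR adjusted p = 7.8e-04, 7.0e-04 and 0.00453). Over all tested genes 4.54% were called higher. The summed level of the 10 was 536 to 544 CPM in 2-D and 555 to 603 CPM in 3-D grown cells. COL1A2, a collagen I chain and the marker of highest CPM, had 325 and 316 CPM in 2-D and 301 and 325 CPM in 3-D grown cells, and the conditions overlapped (log2 fold change −0.04, edgeR adjusted p = 0.649). PDGFRB, TWIST1, PRRX1 and PDGFRA were not called either, with log2 fold changes of 0.02, 0.23, 0.57 and 0.30 (edgeR adjusted p = 0.961, 0.365, 0.328 and 0.662). DCN and LUM did not pass the filter on low counts. DCN had 0.145 and 0.195 CPM in 2-D and 0.0973 and 0.112 CPM in 3-D grown cells, and LUM had 0.0871 and 0.325 CPM in 2-D and 0.243 and 0.948 CPM in 3-D grown cells. No mesoderm, endoderm, neural ectoderm, trophoblast or endothelial marker was called in edgeR's test. Of 21 tested, 5 had an unadjusted p below 0.05, against 21.3% of all tested genes. Their sums were 67.9 to 68.4 and 72.7 to 73.7 CPM for mesoderm, 10.4 to 10.5 and 11.7 to 12.2 for endoderm, 581 to 587 and 605 to 608 for neural ectoderm, 4.15 to 4.54 and 4.91 to 5.01 for trophoblast, and 168 to 169 and 175 to 178 for endothelium, the 2-D range first. GATA6, an endoderm factor, had 0.842 and 1.103 CPM in 2-D and 2.34 and 1.51 CPM in 3-D grown cells (log2 fold change 1.001, edgeR adjusted p = 0.0516). HAND1, a factor of mesoderm and trophoblast, had 0.610 and 0.681 CPM in 2-D and 1.27 and 1.28 CPM in 3-D grown cells (log2 fold change 0.98, edgeR adjusted p = 0.0695). Neither passed the threshold. For both, the 3-D libraries lay above the 2-D libraries, as in 25.4% of all tested genes, at 21 to 48 counts a library. They had the largest log2 fold changes of their lists, whose medians were 0.07 for endoderm and 0.13 for mesoderm. Of 5 tested endoderm markers, SOX7 and CXCR4 lay below 0 (−0.29 and −0.14), and of 6 tested mesoderm markers EOMES did (−0.04). The neural sum was nearly all NES, at 577 to 602 CPM, while PAX6 had 0.487 to 1.004 CPM. The endothelial sum was nearly all KDR, at 147 to 157 CPM, and TEK, at 20.0 to 21.5 CPM. PECAM1, CDH5, VWF and ERG had 0 to 0.535 CPM. CGA, GCM1 and VGLL1 had 0 counts in every library. The part of such cells in the changes of the 10 genes was not tested, and in bulk RNA more cells of a type and more RNA per cell cannot be told apart.

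Calls of higher genes were spread unevenly over exon length. With the tested genes split by exon length into 4 groups of about 5617 genes, 6.78% of the longest group, from 6717 bases, were called higher against 2.85% of the shortest, and 7 of the 10 genes lie in the longest group. With offsets for exon length and GC content the calls of FN1, THBS1, VCAN and LOX were all kept, and the median log2 fold change of the 10 genes was 0.10. The overall scaling moved the levels of all genes. When library size alone set the scaling, the median over all tested genes was −0.06 and that of the 10 genes 0.05, and edgeR's test called 514 genes higher and 1879 lower, where TMM gave 1024 and 758. All 8 genes above 0 remained above 0 under that scaling, and FN1 and LOX stayed called.

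**Figure D5:**
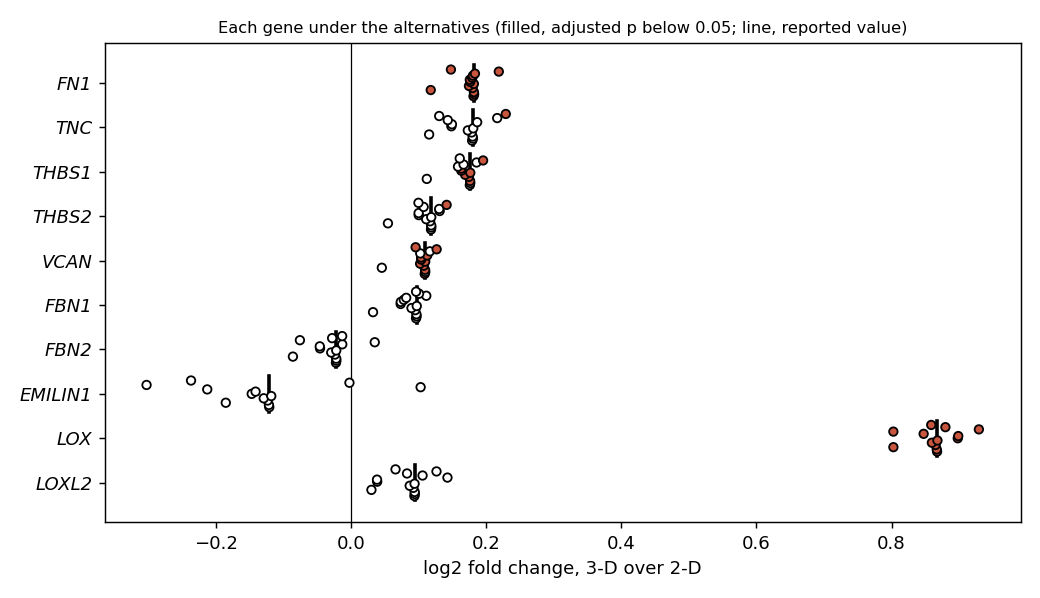
Log2 fold change (3-D over 2-D) for each gene under the alternative analyses (points, filled where the adjusted p was below 0.05), with the value reported above as a line. FN1 and LOX are filled wherever a point is drawn, THBS1 and VCAN in part, and FBN2 and EMILIN1 fall on both sides of 0.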

How the data were processed

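RNA-seq counts of 4 libraries were used. Per the labels, the submitters' processing notes name Trim Galore 0.6.3, HISAT2 2.1.0, the build hg38, featureCounts 1.6.4 and DESeq2 2.11.40.6, and the study's methods name GENCODE genes. The authors deposited whole-number counts per gene for each library, without normalization and without pooling replicates. A second deposited table holds the same counts scaled by the authors with their own fold changes and p-values, and it was not used. Its comparison columns were not compared with the values here.

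Identifiers were matched by GENCODE 44, which also gave positions and exon lengths, for 60295 of 60564 genes. Counts were tested with edgeR 4.0.16 in R 4.3.3 (TMM, its filter on low counts, quasi-likelihood test, condition as the only term, Benjamini-Hochberg adjustment), and DESeq2 1.42.0 was an alternative. The standard error is the size of the log2 fold change over the square root of F, and the 95% interval uses the degrees of freedom of that test. Depth limits precision. The p-values rest on the spread between 2 libraries a condition, with the estimate for each gene drawn toward that of the other tested genes. No replicates were alike within sampling noise (chi-square over its degrees of freedom 2.27 in 2-D and 3.92 in 3-D), so none were counted as 1 sample. The procedures were tested on simulated data. Promoter sequences are RefSeq's (GRCh38.p14), and 8 of the 10 genes were matched. Python 3.11.15 with matplotlib 3.10.9 drew the figures.

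The genes and lists were chosen with earlier results of these data known. FN1 and THBS1, and ITGB1 and ITGA5 of the related lists, are also among genes the study picked from these libraries. Their direction is therefore not independent evidence. The study also reports a significant rise of ITGB1 in 3-D by qRT-PCR. All 10 genes are named, with each called gene of the related lists and up to 3 others of the highest mean CPM, and of the marker lists called genes, while the 2 of highest CPM may be named. Other marker genes (DPPA4, DPPA5, DPPA3, DNMT3L, PDGFRB, TWIST1, PRRX1, PDGFRA, DCN, LUM, GATA6, HAND1, SOX7, CXCR4, EOMES, PAX6, CGA, GCM1, VGLL1, PECAM1, CDH5, VWF and ERG) were named after their values were seen. Alternatives were other tests, scalings, filters, offsets for length and GC content, thinning, a replicate block and each library left out.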

Additional observations from a re-analysis of the deposited data

How the results depend on the processing

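With 14 alternatives, 138 values of the 10 genes gave an adjusted p. Of these 123 kept their direction and their side of the threshold, 11 lost the call, 2 gained it and 2 changed sign. FBN2 ran from −0.076 to 0.035 (log2) and EMILIN1 from −0.30 to 0.10 with each library left out in turn. Only the fits without 2-D replicate 1 changed their sign, and neither gene was called there. The count of all called genes was 1782, and became 794 with DESeq2, 1139 with edgeR's likelihood ratio test and 974 to 2643 with each library left out. Of the 10 genes called higher, there were 4 in the reported analysis, 2 with DESeq2, the likelihood ratio test and library size alone, and 2 to 5 with each library left out. Related matrix genes called higher numbered 6 in the reported analysis and 4 with library size alone, where 1 gene, ADAMTS1, was called lower against 0, and 5 to 9 with each library left out. The cause of these shifts was not tested, and LOX and EMILIN1 have no adjusted p in DESeq2. With 1 library left out, the lone library of its condition is assumed to vary like the other two. Over genes as a whole, libraries with the same replicate number did not deviate together (correlation −0.016). This value cannot exclude pairing in a part of the genes, which was not tested. A fit with the replicate block called 2167 genes in all, 4 of the 10 genes and 7 related genes, higher in 3-D in each list and with 0 lower, and with the block and offsets for length and GC content it called 2361, 4 and 5. Low counts limit the precision of EMILIN1, LOX and POSTN.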
